A study of Homo sapiens with 2 samples.

Results

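Long intergenic non-coding RNAs with a numbered LINC symbol were compared between an siHNRNPM library and a control library of RKO, a cell line from a human colorectal carcinoma. The genes were chosen by their read counts and their names: they are every entry of the count table whose symbol is LINC followed by digits and whose reads in both libraries together came to 20 or more. Of 946 LINC genes in the table, 693 had 0 reads, 163 had 1 to 19 reads and 90 reached 20 reads. The table held 54261 features, of which 13422 reached the same minimum. The siHNRNPM library came from cells transfected with siRNA against HNRNPM, labelled as an HNRNPM knockdown, and the control library from cells transfected with a control siRNA, labelled wild type. Each group was 1 library, so no difference below has a replicate check and none carries a p-value.

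A LINC symbol is a placeholder name given to a long RNA that lies between protein-coding genes and has no established protein or function. Such RNAs are usually spliced and polyadenylated like messenger RNAs, are present at low levels, and often start at the promoter of a neighbouring coding gene, from which they run in the opposite direction. Some act on neighbouring genes, some act as scaffolds for proteins or bind other RNAs, and a few were later found to encode small proteins. HNRNPM is an abundant nuclear RNA-binding protein that prefers GU-rich RNA and takes part in alternative splicing.

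Gene reads came to 13056118 in the siHNRNPM library and to 19931360 in the control library. HNRNPM itself had 1042 reads in the siHNRNPM library and 2870 in the control library, which left its scaled level at 55.2% of the control (log2 ratio -0.86, 95% counting interval -0.96 to -0.76). Of 11 colorectal epithelial markers, EPCAM, KRT8, KRT18 and CDX2 reached 20 reads, and KRT20 and CDX1 had 0 reads in both libraries. The list summed to 87.5 CPM (reads per 1000000 of the scaled library) in siHNRNPM and 79.6 CPM in control, but its members differed in direction. EPCAM (log2 ratio 0.36) and KRT8 (0.32) had intervals above a ratio of 1, and that of KRT18 (0.06) spanned it. CDX2 was lower, with 106 reads in siHNRNPM and 212 in control (log2 ratio -0.40, interval -0.75 to -0.05). CDH1, under the minimum, had 1 and 10 reads. The libraries stood apart in liver-type genes: AFP had 174 reads in siHNRNPM and 1 in control, ALB had 77 and 0, and APOA1 and TTR had 0 in both, so that the 4 genes summed to 19.2 CPM in siHNRNPM and 0.0503 CPM in control. The 3 fibroblast markers summed to 2.68 CPM in siHNRNPM and 1.06 CPM in control with DCN at 0, and the 3 lymphoid and myeloid markers to 0 and 0.101 CPM. Their part in the LINC values was not tested, and in bulk RNA fewer cells of a type and less RNA per cell cannot be told apart.

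Promoters of some LINC genes with large differences are shown as examples. LINC00893, which had the highest ratio, is not among them, and promoter content was not compared between higher and lower genes. LINC01521 and LINC01315, both on chromosome 22, were among the LINC genes higher in siHNRNPM, and LINC00260, on chromosome 1, was the lowest. Their promoters run from 250 bases before to 50 bases after the start given by RefSeq (GRCh38.p14), with the transcribed bases in capitals. They lie at chr22:31346509-31346808 (+ strand), chr22:42369159-42369458 (- strand) and chr1:203730327-203730626 (+ strand).
LINC01521: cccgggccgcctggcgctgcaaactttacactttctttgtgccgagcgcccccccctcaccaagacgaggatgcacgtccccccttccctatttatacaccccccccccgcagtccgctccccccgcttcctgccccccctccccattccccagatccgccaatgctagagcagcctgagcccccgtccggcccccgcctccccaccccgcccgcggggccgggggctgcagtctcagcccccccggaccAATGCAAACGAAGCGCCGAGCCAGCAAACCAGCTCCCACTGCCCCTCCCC
LINC01315: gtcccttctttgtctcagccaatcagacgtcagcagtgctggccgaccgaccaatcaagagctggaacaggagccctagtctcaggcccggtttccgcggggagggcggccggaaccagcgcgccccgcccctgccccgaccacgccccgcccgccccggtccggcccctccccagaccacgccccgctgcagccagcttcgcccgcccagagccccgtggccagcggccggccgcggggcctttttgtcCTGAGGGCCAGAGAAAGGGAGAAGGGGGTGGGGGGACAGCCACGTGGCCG
LINC00260: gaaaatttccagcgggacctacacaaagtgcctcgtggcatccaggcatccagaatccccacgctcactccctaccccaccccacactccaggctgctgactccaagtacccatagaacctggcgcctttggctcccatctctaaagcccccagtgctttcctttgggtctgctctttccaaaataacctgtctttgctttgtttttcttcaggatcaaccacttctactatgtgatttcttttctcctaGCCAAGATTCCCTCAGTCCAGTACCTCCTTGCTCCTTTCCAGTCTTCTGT

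The LINC01521 window was 70.7% G and C with 22 CG dinucleotides, and the LINC01315 window 72.7% with 28. The LINC00260 window was 50.7% with 4. Over the 72 LINC genes matched to a promoter entry, the median was 62.0% G and C with 21 CG dinucleotides, against 58.7% and 14 over all 35116 promoters of the table. The word TATAAA, searched on both strands, was in 6.94% of the LINC windows, that of LINC01521 among them, and in 11.5% of all windows. The typical LINC start measured in these cells thus lay in a more CG-rich window than the typical start in the table, and LINC00260 did not. The LINC genes had passed the minimum of reads, while the promoters set against them were not filtered by reads. Promoters of the other measured features were not compared, so whether the CG or TATAAA differences are particular to LINC genes was not tested.

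LINC genes made up a small share of the reads. The 90 genes held 15266 reads in siHNRNPM, which was 0.117% of its gene reads (exact 95% interval 0.115 to 0.119), and 20983 reads in control, which was 0.105% (0.104 to 0.107). The 10 most read of them held 55.0% of these reads in siHNRNPM and 55.6% in control. A few loci therefore carried most of the signal in both libraries. Intervals here and below cover counting error only, since the reads carry no molecular identifiers.

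Across the 90 genes, levels leaned towards the siHNRNPM library. The median log2 ratio of siHNRNPM over control was 0.21 (quartiles -0.20 and 0.55), while the median over all 13422 features was -0.01. The siHNRNPM level was above the control level for 61 of the 90 genes, or 67.8%, and for 48.3% of all features. The counting interval of the ratio lay above 1 for 25 genes (27.8%, against 21.2% of all features) and below 1 for 9 (10.0%, against 25.3% of all features), and it spanned 1 for 56. Most single LINC genes thus could not be placed on either side at this depth, and those that could lay mostly on the higher side. These shares depend on depth, and the median gene had 136.5 reads among LINC genes and 973.5 among all features. With 20 to 99 reads, 11.8% of LINC genes lay above and 5.88% below, against 13.7% and 8.39% of all features. With 100 to under 1000 reads these were 37.0% and 13.0%, against 18.8% and 20.2%. With 1000 or more reads they were 40.0% and 10.0% of 10 LINC genes, against 25.4% and 34.5%.

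A gene was called at least 2-fold higher or lower where its log2 ratio was 1 or more, or -1 or less, and the interval excluded a ratio of 1. By this rule 4 LINC genes were higher, which is 4.44%, against 2.32% of all features, and 2 were lower, which is 2.22%, against 1.54% of all features. The 2-fold calls sat among genes with few reads: of the 34 LINC genes with 20 to 99 reads, 3 were higher (8.82%), where 10.5% of all features in that range were. Of the 46 with 100 to under 1000 reads, 1 was higher (2.17%, against 1.32% of all features in that range), and of the 10 with 1000 or more, 0 were. Read at matched depth, the shares of 2-fold calls among LINC genes were near those of all features.

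**Figure D1:**
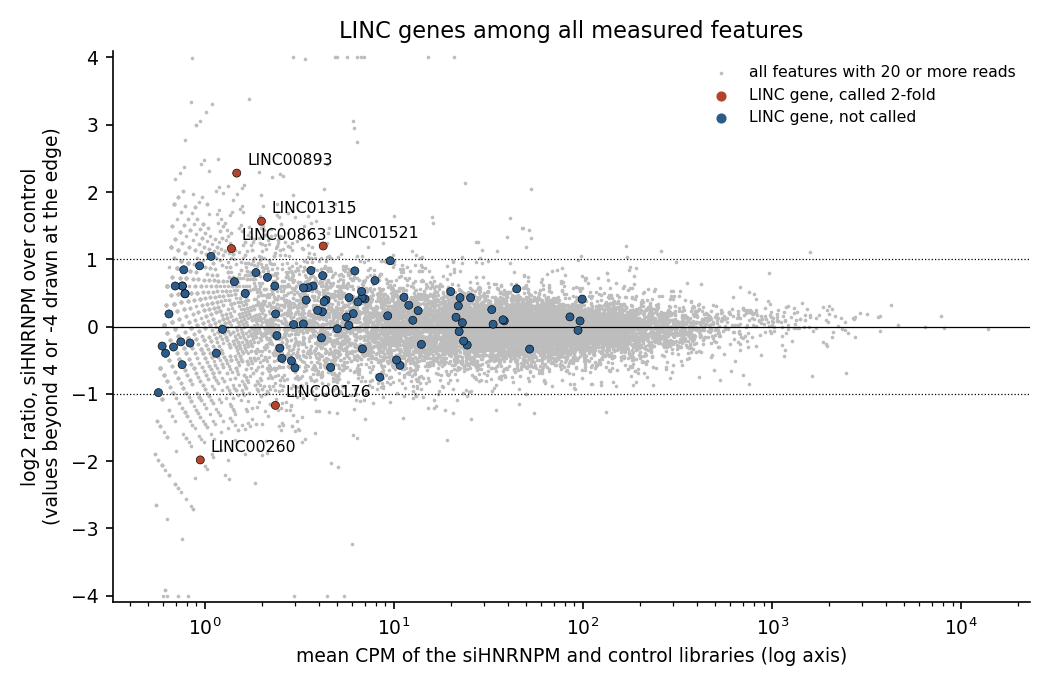
Log2 ratio of siHNRNPM over control against the mean CPM of both libraries (log axis) for all 13422 features with 20 or more reads (grey) and the 90 LINC genes (blue, or red where called 2-fold). The 6 called LINC genes lie at the low end of the level axis, and the spread of all features narrows as the level rises.

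Median ratios of LINC genes were above 1 in each range of reads, as were those of other long non-coding RNAs. LINC genes with 20 to 99, 100 to under 1000 and 1000 or more reads had median log2 ratios of 0.19, 0.27 and 0.09. The 627 other long non-coding RNAs had medians of 0.18, 0.17 and 0.12 in the same ranges, and protein-coding genes 0.02, -0.02 and -0.03. In the lowest range the lean was slight: 55.9% of the LINC genes and 54.2% of all features were above a ratio of 1, 11.8% and 13.7% had an interval above it, and the median over all features was 0.07. Over all ranges the other long non-coding RNAs had a median of 0.17, with 12.3% called 2-fold higher and 1.91% lower. At matched depth their share of 2-fold higher calls was 16.6% where that of LINC genes was 8.82% (20 to 99 reads) and 5.03% where that of LINC genes was 2.17% (100 to under 1000 reads). The medians of LINC genes and other long non-coding RNAs thus lay near each other and above those of coding genes, while fewer LINC genes were called 2-fold higher, a difference that rests on 4 LINC genes and was not tested.

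**Figure D2:**
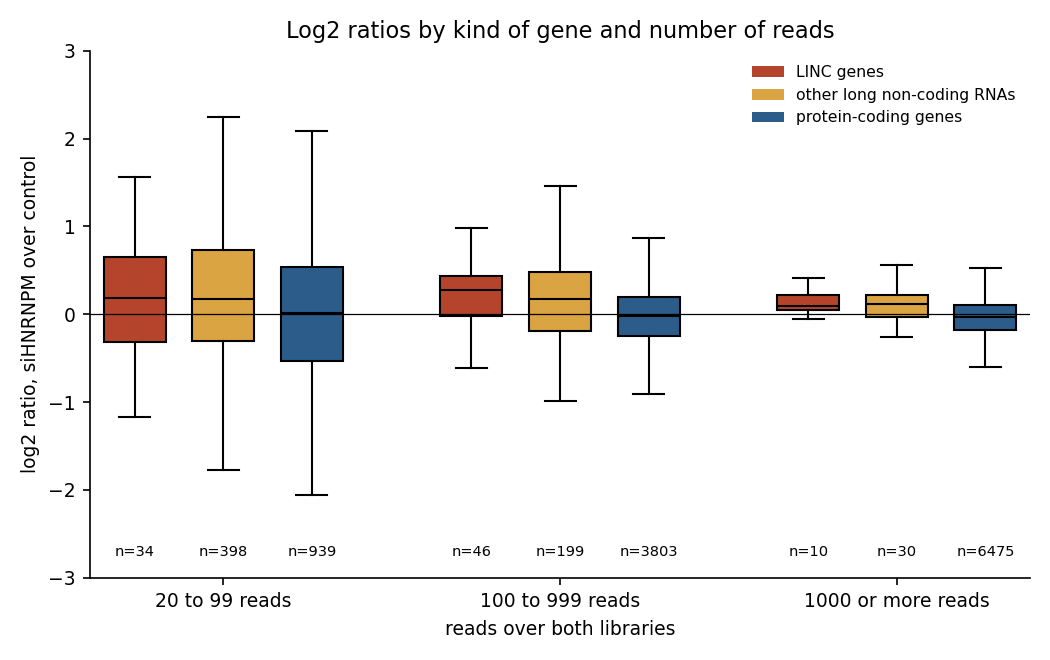
Box plots of log2 ratios of siHNRNPM over control for LINC genes, other long non-coding RNAs and protein-coding genes, in 3 ranges of reads over both libraries (line, median; box, quartiles; whiskers, farthest value within 1.5 box lengths; n, number of genes). The medians of both non-coding kinds lie above 0 in every range, and those of coding genes lie between -0.03 and 0.02.

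LINC00893, listed by RefSeq as EOLA1-DT, a transcript that diverges from the EOLA1 gene, had the highest ratio. It had 32 reads in siHNRNPM and 10 in control, or 2.45 and 0.503 CPM (log2 ratio 2.28, 95% interval 1.22 to 3.47), and was the single LINC gene whose whole interval lay beyond 2-fold. It lies at chrX:149527591-149540959 (- strand, GENCODE 29 on GRCh38), and its exons overlap those of EOLA1, which the table lists as CXorf40A. They also overlap those of AC244197.3, a coding gene on the same strand for which no count was found. CXorf40A had 137 reads in siHNRNPM and 222 in control (log2 ratio -0.09, interval -0.41 to 0.22), so that the coding partner was not distinguishable from a ratio of 1.

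LINC00893 has a near relative on the same chromosome, LINC00894 or EOLA2-DT, beside EOLA2 (CXorf40B), a copy of EOLA1. Of the 50-base words in LINC00893 transcripts, 29.2% also occur in LINC00894 transcripts, and the longest stretch identical between their longest transcripts was 241 bases. A part of 150 bases is shown, each on its own transcript's strand, at chrX:149534127-149534276 (- strand) for LINC00893 and chrX:149945956-149946105 (+ strand) for LINC00894.
LINC00893: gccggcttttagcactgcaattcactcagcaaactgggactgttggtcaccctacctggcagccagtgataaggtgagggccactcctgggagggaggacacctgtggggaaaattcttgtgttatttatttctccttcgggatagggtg
LINC00894: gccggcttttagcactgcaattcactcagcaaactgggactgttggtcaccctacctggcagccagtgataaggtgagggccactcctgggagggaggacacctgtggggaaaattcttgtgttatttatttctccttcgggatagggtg

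A read from this stretch cannot be assigned to one of the genes by its sequence. LINC00894 had 13 reads in siHNRNPM and 26 in control (log2 ratio -0.40, interval -1.48 to 0.62). The reads of both genes together came to 45 in siHNRNPM and 36 in control, which gave a log2 ratio of 0.93 (interval 0.26 to 1.60). The summed pair was still higher in siHNRNPM, with less than a 2-fold difference, and how the reads were split between the genes is not given in the sources used here.

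LINC01315 had 39 reads in siHNRNPM and 20 in control, or 2.98 and 1.01 CPM (log2 ratio 1.57, interval 0.75 to 2.42). It lies at chr22:42364400-42369236 (- strand) with 2 exon blocks and overlaps the exons of no other gene. The coding genes on either side were hardly read: TCF20, which encodes a nuclear transcriptional coregulator and lies 20784 bases away, had 3 reads in siHNRNPM and 23 in control (log2 ratio -2.34, interval -4.71 to -0.61). NFAM1, on the other side, had 2 and 0 reads. LINC01315 and TCF20 thus lay on opposite sides of a ratio of 1.

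LINC01521, a single-exon gene at chr22:31346777-31348719 (+ strand), had 77 reads in siHNRNPM and 51 in control, or 5.88 and 2.56 CPM (log2 ratio 1.20, interval 0.67 to 1.74). It starts 545 bases from the start of PATZ1, on the opposite strand. PATZ1 encodes a zinc-finger transcription factor of the BTB family, and had 916 reads in siHNRNPM and 503 in control, or 70.0 and 25.3 CPM (log2 ratio 1.47, interval 1.31 to 1.63). Both sides of this divergent pair had a ratio above 2-fold, but the interval of LINC01521 reached below 2-fold, and with the control library thinned its log2 ratio was 0.98 and it was no longer called. On the far side of LINC01521, DRG1, which encodes a GTP-binding protein, had 530 reads in siHNRNPM and 912 in control (log2 ratio -0.18, interval -0.34 to -0.02), so that the gene beyond LINC01521 was not higher.

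LINC00863, at chr10:87342736-87357882 (+ strand), had 25 reads in siHNRNPM and 17 in control, or 1.91 and 0.855 CPM (log2 ratio 1.16, interval 0.21 to 2.14). Its exons overlap those of NUTM2D on the same strand, which had 4 and 1 reads. LINC01516 had a ratio of like size, with 19 reads in siHNRNPM and 14 in control, but its interval of -0.03 to 2.15 took in a ratio of 1 and it was not called.

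LINC00260 had 5 reads in siHNRNPM and 30 in control, or 0.382 and 1.51 CPM (log2 ratio -1.98, interval -3.70 to -0.60), the lowest ratio of the 90 genes. RefSeq places it at chr1:203730577-203731853. LINC00176 had 19 reads in siHNRNPM and 65 in control, or 1.45 and 3.27 CPM (log2 ratio -1.17, interval -1.99 to -0.42). It lies at chr20:64034344-64039962 (+ strand), and RefSeq now lists it as C20orf204, a protein-coding gene, so that LINC00260 was the one called lower gene that RefSeq still counts as non-coding. PRPF6, a splicing factor gene 1244 bases from LINC00176, had 1313 reads in siHNRNPM and 2091 in control (log2 ratio -0.07, interval -0.17 to 0.03).

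**Figure D3:**
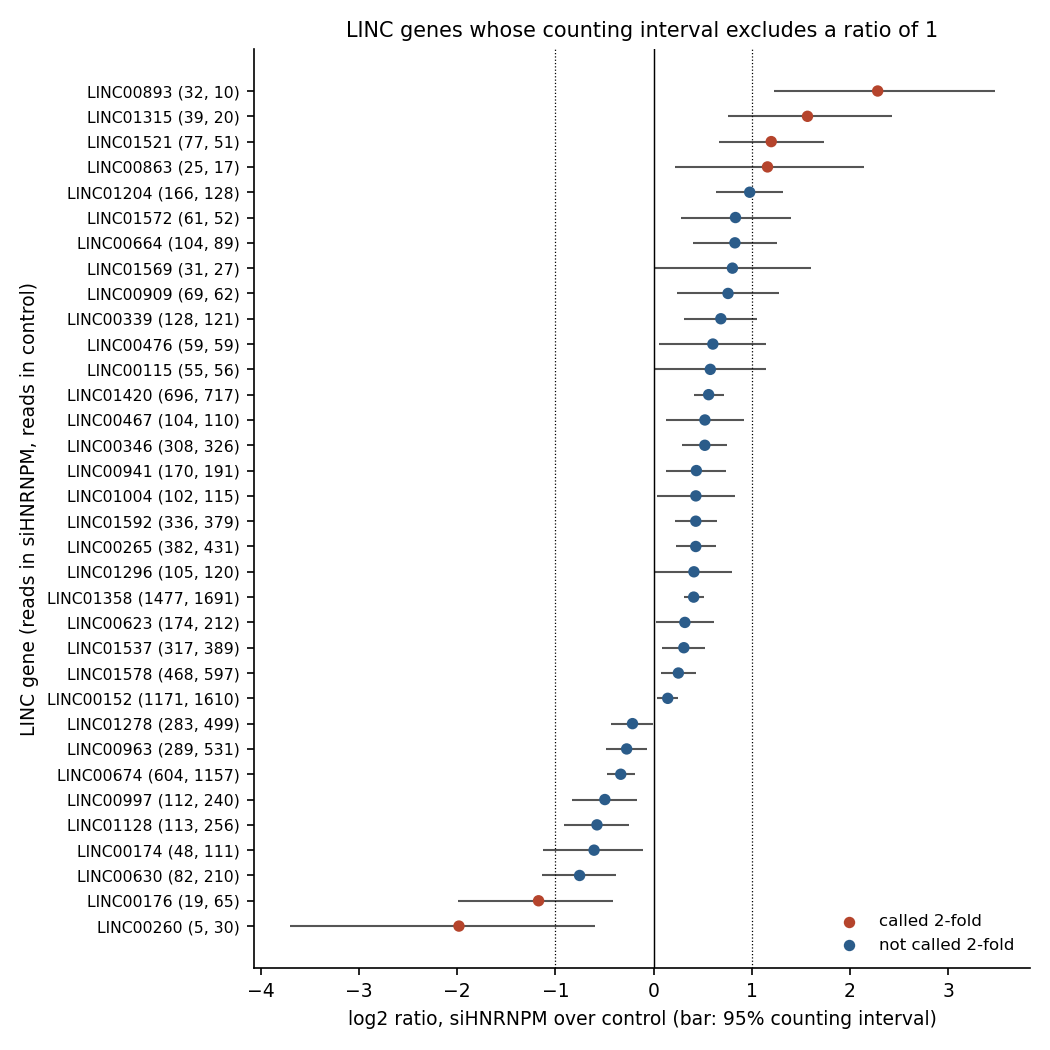
Log2 ratio of siHNRNPM over control with its 95% counting interval for the 34 LINC genes whose interval excludes a ratio of 1, with reads in siHNRNPM and then control in brackets (red, called 2-fold; blue, not called; dotted lines, 2-fold). The 25 higher genes run from LINC00893 at 2.28 to LINC00152 at 0.14, and the 9 lower genes from LINC01278 at -0.21 to LINC00260 at -1.98.

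Better-read LINC genes showed smaller differences with narrower intervals. LINC01204, at chrX:45505388-45630202 (+ strand), had 166 reads in siHNRNPM and 128 in control (log2 ratio 0.98, interval 0.64 to 1.32), just under 2-fold. LINC00664, which overlaps the zinc-finger gene ZNF429, had 104 reads in siHNRNPM and 89 in control (log2 ratio 0.83, interval 0.41 to 1.25). LINC00339, near CDC42, had 128 reads in siHNRNPM and 121 in control (log2 ratio 0.68, interval 0.31 to 1.06). In these 3 genes the smaller siHNRNPM library held more reads than the control library.

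On the lower side, LINC00630 had 82 reads in siHNRNPM and 210 in control (log2 ratio -0.75, interval -1.14 to -0.38). LINC01128 had 113 reads in siHNRNPM and 256 in control (log2 ratio -0.58, interval -0.91 to -0.25). LINC00674, which had the highest level per length of the 83 LINC genes placed in GENCODE, had 604 reads in siHNRNPM and 1157 in control (log2 ratio -0.33, interval -0.48 to -0.19). Its level was 62.9 CPM per kilobase of exon in siHNRNPM and 79.3 in control, where the median LINC gene had 1.43 in siHNRNPM and 1.22 in control. LINC01128 lies across LINC00115 on the opposite strand of chromosome 1, and LINC00115 had 55 reads in siHNRNPM and 56 in control (log2 ratio 0.58, interval 0.01 to 1.14). Overlapping genes on opposite strands thus had ratios on opposite sides of 1, in counts whose use of strand is not given in the sources used here.

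LINC01358, at chr1:58933643-59240555 (+ strand), was the most read LINC gene, with 1477 reads in siHNRNPM and 1691 in control, or 113 and 85.0 CPM (log2 ratio 0.41, interval 0.31 to 0.51). JUN, which encodes an AP-1 transcription factor and starts 149316 bases away on the opposite strand, had 6631 reads in siHNRNPM and 10780 in control (log2 ratio -0.10, interval -0.14 to -0.05). Other well-read LINC genes differed less or, as LINC00674, lay lower. LINC01000 had 1207 reads in siHNRNPM and 1906 in control (log2 ratio -0.06, interval -0.16 to 0.05), and LINC00938 had 443 and 657 (log2 ratio 0.03, interval -0.14 to 0.21). The intervals of LINC01000 and LINC00938 allow at most a small difference in either direction.

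Several LINC genes have roles described elsewhere, and none of those listed was called 2-fold. LINC00152 (CYTOR), reported to promote tumour cell proliferation and migration, had 1171 reads in siHNRNPM and 1610 in control (log2 ratio 0.14, interval 0.03 to 0.25). Of its 50-base words, 16.0% also occur in MIR4435-2HG, which had 1464 reads in siHNRNPM and 2143 in control (log2 ratio 0.05, interval -0.04 to 0.15). LINC01578 (CHASERR), an RNA that restrains the neighbouring chromatin remodeller gene CHD2 in cis, had 468 reads in siHNRNPM and 597 in control (log2 ratio 0.25, interval 0.07 to 0.43). CHD2, 488 bases from its end, had 2783 reads in siHNRNPM and 4194 in control (log2 ratio 0.01, interval -0.06 to 0.08). The higher CHASERR level thus stood beside a CHD2 level that was not distinguishable from the control.

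LINC00460, often reported as raised in tumours, had 516 reads in siHNRNPM and 739 in control (log2 ratio 0.09, interval -0.08 to 0.25). LINC00963, described in prostate cancer cells, had 289 reads in siHNRNPM and 531 in control (log2 ratio -0.27, interval -0.49 to -0.06). LINC00346, listed by RefSeq as PRECSIT and described as a p53-regulated RNA that activates STAT3, had 308 reads in siHNRNPM and 326 in control (log2 ratio 0.52, interval 0.29 to 0.75). LINC00467 had 104 reads in siHNRNPM and 110 in control (log2 ratio 0.52, interval 0.12 to 0.92). Of a list of 20 LINC genes with described roles, 12 reached 20 reads, among them NORAD, the former LINC00657. Of these 12, 5 had an interval above 1, 1 below it and 6 across it, 0 were called 2-fold and the median log2 ratio was 0.13. Of all features, not matched for reads, 21.2% had an interval above 1 and 25.3% below it. The shares called 2-fold were 2.32% higher and 1.54% lower. NORAD, which binds the PUMILIO repressor proteins, had 9201 reads in siHNRNPM and 12830 in control (log2 ratio 0.12, interval 0.08 to 0.16).

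The other 8 listed genes were hardly read. LINC01021 (PURPL), a target of p53, had 11 reads in siHNRNPM and 7 in control. LINC00261, LINC00473, LINC00961, LINC01133 and LINC00707 had 0 reads in both libraries, which allows up to 3 reads in each. LINC00511 had 3 and 0 reads, and LINC00665 had 0 and 1.

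A list of 38 well-known long non-coding RNAs without a LINC number, which also holds NORAD, was read in the same way. Of these, 26 reached 20 reads, 12 had an interval above 1, 3 below it and 11 across it, and the median log2 ratio was 0.19. Of all features, not matched for reads, 21.2% lay above, 25.3% below and 2.32% were called 2-fold higher. The 3 called 2-fold were all higher: NEAT1, the scaffold of paraspeckles, had 28330 reads in siHNRNPM and 19861 in control (log2 ratio 1.12, interval 1.09 to 1.14). MIR34AHG, the host of the p53-regulated miR-34a, had 87 and 48 reads (log2 ratio 1.46, with the lower bound of the interval at 0.94), and MIR31HG had 34 and 25 (log2 ratio 1.05, interval 0.26 to 1.85). LINC-PINT, a p53-induced RNA, had 5685 reads in siHNRNPM and 5511 in control (log2 ratio 0.65, interval 0.59 to 0.70). No LINC gene with 1000 or more reads reached the ratios of NEAT1 or LINC-PINT.

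RefSeq now lists 7 of the 90 genes as protein-coding, 82 as long non-coding and 1, LINC01296 (DUXAP9), as a transcribed pseudogene. The 7 coding genes had a median log2 ratio of 0.10 and the 82 non-coding genes 0.21. LINC00998 (SMIM30), a small membrane protein gene, had 1298 reads in siHNRNPM and 1861 in control (log2 ratio 0.08, interval -0.02 to 0.19). LINC00493 (SMIM26), whose product is mitochondrial, had 511 and 724 reads (log2 ratio 0.10, interval -0.07 to 0.27). LINC00116 (MTLN), which encodes a peptide of the inner mitochondrial membrane, had 190 and 245 (log2 ratio 0.24, interval -0.04 to 0.52). None of these 3 could be told from a ratio of 1.

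LINC01420 (NBDY) was the one coding gene of the 7 with an interval above 1. It had 696 reads in siHNRNPM and 717 in control, or 53.2 and 36.1 CPM (log2 ratio 0.56, interval 0.41 to 0.71). NBDY is a small protein that binds the mRNA decapping complex and is found at P-bodies. Its reading frame in GENCODE 29, at chrX:56729354-56729560 (+ strand), has 207 bases and encodes 68 residues out of a transcript of 1529 bases. It is shown with the start and stop codons in capitals.
LINC01420: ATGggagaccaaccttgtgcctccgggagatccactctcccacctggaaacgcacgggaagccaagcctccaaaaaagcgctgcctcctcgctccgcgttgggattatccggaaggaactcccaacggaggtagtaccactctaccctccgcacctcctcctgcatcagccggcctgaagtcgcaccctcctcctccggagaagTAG

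Most of this transcript lies outside the frame. The gene also overlaps the exons of SPIN3 on the other strand, which had 208 reads in siHNRNPM and 308 in control (log2 ratio 0.04, interval -0.22 to 0.30).

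Of the 83 LINC genes placed in GENCODE, 14 started within 1000 bases of the start of a measured coding gene on the opposite strand. How often other genes did so was not counted. LINC00909, LINC00476, LINC00893, LINC01024 and LINC00894 overlap that coding gene, and the others do not. In 1 of these pairs, LINC01521 and PATZ1, both intervals lay above 1. In 2 pairs the LINC gene lay above and the coding gene below: LINC00909 had 69 reads in siHNRNPM and 62 in control (log2 ratio 0.76) beside ZNF407 with 294 and 554 (log2 ratio -0.31, interval -0.52 to -0.10). LINC00476 had 59 reads in both libraries (log2 ratio 0.60) beside ERCC6L2 with 693 and 1392 (log2 ratio -0.40, interval -0.54 to -0.27). LINC00893 lay above with CXorf40A across 1, and in the other pairs the LINC interval spanned 1. Among those, the coding gene lay above in 1 (ZNF41, log2 ratio 0.69, beside LINC01560), below in 4 and across in 5. Sharing a start region thus went with the same direction in 1 pair and with opposite directions in 2. In both of those 2 pairs the genes overlap, in counts whose use of strand is not given in the sources used here.

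**Figure D4:**
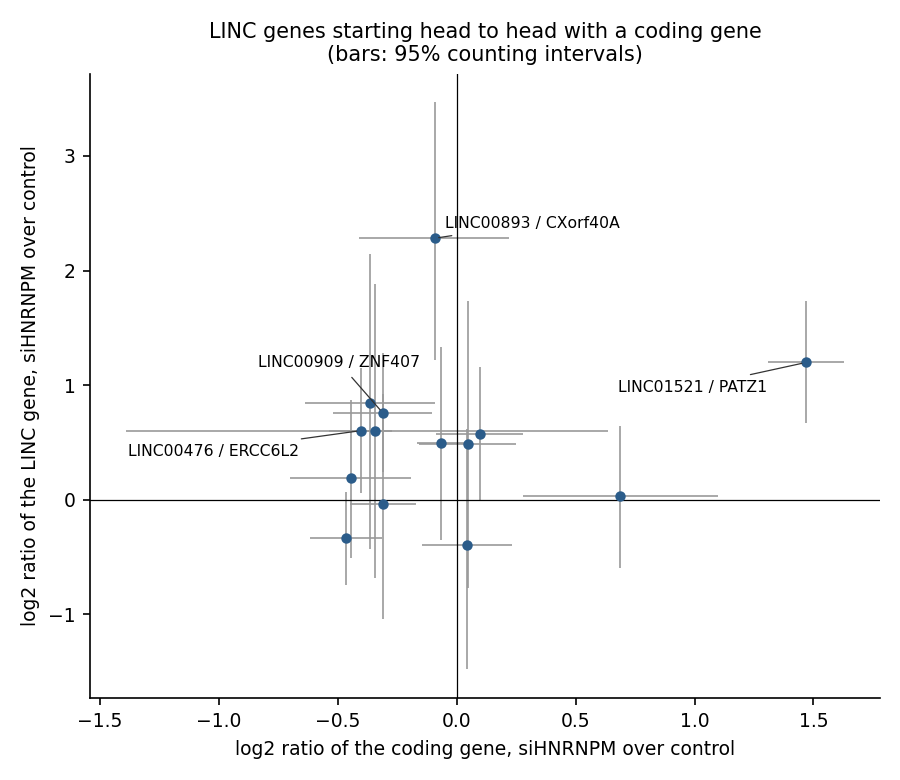
Log2 ratio of siHNRNPM over control for 14 LINC genes against that of the coding gene that starts within 1000 bases on the opposite strand, with 95% counting intervals on both axes. PATZ1 and LINC01521 lie together at the upper right, and ZNF407 and ERCC6L2 lie left of 0 with their LINC partners above 0.

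Neighbours at any distance were compared as well. Each LINC gene was set beside the nearest coding gene that reached 20 reads, which was not always the nearest coding gene. For LINC01315 it was TCF20, 20784 bases away, although NFAM1 lies at 11174. LINC00662 was paired with UQCRFS1 at 1411381 bases, and LINC01106 with MTLN, which is LINC00116, itself a LINC gene of the set. For the 73 LINC genes with such a partner, Pearson's r between the log2 ratios was -0.0035 and Spearman's rho 0.135. Of these pairs, 40 had the same sign. For the 43 with 100 or more reads, r was 0.361, rho 0.223 and 25 pairs had the same sign. Among these 43, LINC01521 and PATZ1 had the highest log2 ratios on both sides (1.20 and 1.47). Among the 73, TCF20 had the lowest coding ratio (-2.34), beside LINC01315 at 1.57. Pearson's r without these pairs was not computed. ZBTB14, SAMD11 and CEBPB were each paired with more than 1 LINC gene. These are descriptions across genes of the same libraries, and genes are not independent replicates. The paired coding genes had a median log2 ratio of -0.07 in both sets, while the LINC genes had 0.22.

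The words searched were no more frequent in LINC transcripts than in those of all measured genes. GTGAGAA was picked because it was found earlier in these data in untranslated regions of lower coding genes, not as a known HNRNPM site. All words were searched on the transcript strand, with T for U. GTGAGAA was in 18 of 83 longest LINC transcripts (21.7%) and in 28.9% of 12304 measured genes with a transcript. LINC transcripts were shorter, with a median of 2351 bases against 3546, and the words per kilobase came to 0.0910 in LINC transcripts and 0.0973 in all. TGTGTG and GGTTGG were searched as GT-rich words, because HNRNPM prefers GU-rich RNA. They were in 54.2% and 34.9% of LINC transcripts and in 70.9% and 51.9% of all. Per kilobase their rates were nearly equal, at 0.628 in LINC transcripts and 0.636 in all for TGTGTG, and at 0.209 and 0.210 for GGTTGG.

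LINC genes with GTGAGAA had a median log2 ratio of 0.14 and those without 0.25. For other long non-coding RNAs the medians were 0.02 with GTGAGAA and 0.19 without, and for protein-coding genes -0.10 and 0.01. GTGAGAA was picked from lower coding genes of these data, so the coding medians are no separate result about it. With GGTTGG the LINC median was 0.10 (29 genes) and without it 0.38 (54 genes). For other long non-coding RNAs the medians were 0.15 with GGTTGG and 0.18 without, and for protein-coding genes -0.04 and -0.01. With TGTGTG the LINC median was 0.25 and without it 0.19. For other long non-coding RNAs these were 0.15 and 0.18, and for protein-coding genes -0.04 and 0.01. No difference between genes with and without a word was tested. LINC genes with GTGAGAA thus still had a median above 0. The word occurred both in LINC genes that were higher and in ones that were lower, as these windows of 47 transcript bases show, with the word in capitals. They lie at chr10:87354700-87354746 and chr10:87356351-87356397 for LINC00863, chr19:21501884-21501930 for LINC00664, chr1:59048696-59048742 for LINC01358, chr1:855798-855844 for LINC01128 and chrX:102884166-102884212 for LINC00630, all on the + strand (GENCODE 29, GRCh38).
LINC00863, first site: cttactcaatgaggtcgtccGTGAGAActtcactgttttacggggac
LINC00863, second site: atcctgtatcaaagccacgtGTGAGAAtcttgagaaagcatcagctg
LINC00664: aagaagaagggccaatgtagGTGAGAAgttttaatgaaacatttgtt
LINC01358: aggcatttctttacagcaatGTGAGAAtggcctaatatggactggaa
LINC01128: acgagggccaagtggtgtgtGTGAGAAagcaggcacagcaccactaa
LINC00630: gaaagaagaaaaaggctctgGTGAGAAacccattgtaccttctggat

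The first 4 windows come from genes that were higher in siHNRNPM, with log2 ratios of 1.16 for LINC00863, 0.83 for LINC00664 and 0.41 for LINC01358. The last 2 come from LINC01128 at -0.58 and LINC00630 at -0.75. A match is a description of the letters and does not show binding.

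Some counts rest on shared sequence. Of the 83 LINC genes placed in GENCODE, 43 overlap an exon of another gene on either strand. In 4, at least 50% of the 50-base words also occur in transcripts of other loci, and in 66 fewer than 5% do. The 4 were LINC01123 (92.2%), LINC01106 (89.2%), LINC01296 (81.5%) and LINC00623 (64.6%). LINC01123 and LINC01106, copies of each other on chromosome 2, together had 86 reads in siHNRNPM and 132 in control (log2 ratio -0.01, interval -0.42 to 0.39). None of the 4 was called 2-fold. The 40 placed genes with no exonic overlap had a median log2 ratio of 0.35, and the 43 with overlap 0.19. The shares above a ratio of 1 were 65.0% without overlap and 69.8% with it. Those with an interval above 1 were 27.5% and 30.2%, at median reads of 101 and 185.

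At the reads minimum, the genes just inside were LINC00173 with 7 reads in siHNRNPM and 13 in control, LINC01600 with 5 and 15, and LINC00535 with 9 and 12. Just outside were LINC00853 with 7 and 12, LINC00937 with 8 and 11, and LINC00680 with 9 and 9. Below the minimum, 32 LINC genes had reads in siHNRNPM only and 52 in control only, the deeper library. The highest of these were LINC01590, with 16 reads in siHNRNPM and 0 in control, and LINC01140, with 0 in siHNRNPM and 10 in control. Set against a floor of 3 reads in the library at 0, LINC01590 came out 8.10-fold higher and LINC01140 2.19-fold lower in siHNRNPM, while their counting intervals reached down to 5.86-fold and 1.48-fold. Neither reached 20 reads in all, and no gene among the 90 had 0 reads in a library.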

How the data were processed

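RNA was measured by sequencing of 1 siHNRNPM library and 1 control library of RKO cells, grouped by their treatment labels. The authors deposited whole-number read counts per gene symbol, without normalization, per the file headers. Per the submitters' processing notes, HISAT2 2.0.4 and GRCh38 were named, in roles those notes leave unstated. The counter, gene annotation, use of strand, treatment of multi-mapped reads, siRNA sequence and time after transfection are not given in the sources used here.

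The libraries held 13056118 (siHNRNPM) and 19931360 (control) reads in genes. TMM scaling (edgeR 4.0.16, R 4.3.3) gave factors of 1.00 for siHNRNPM and 0.998 for control, and levels are CPM. The log2 ratio is siHNRNPM over control, with 0 reads set to 0.5. Its 95% interval (exact, Clopper-Pearson) treats a gene's reads as divided between the libraries and is scaled by library size (Python 3.11.15, scipy 1.17.1), and was checked on simulated counts. With 1 library per group no test was run. LINC symbols were matched to RefSeq by symbol (67) or synonym (23). Positions came from GENCODE 29 (83) or RefSeq (7). Named genes were the 10 most abundant, those called 2-fold, those with a described role, those at the reads minimum or at 0 in a library, and neighbours of these. LINC genes named for an interval short of 2-fold, an overlap, a nearby start on the opposite strand or a sequence word were added after their values were seen. The genes and lists were chosen with earlier results of these data known. Alternatives were DESeq2 1.42.0 size factors, total-count and upper-quartile scaling, a thinned control library, other minimums, a stricter call and the omission of overlapping or near-identical genes.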

Additional observations from a re-analysis of the deposited data

How the results depend on the processing

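The 2-fold counts moved with the number of genes and the call rule. The share of all features called was not counted under these other settings, so the counts here show only how the LINC calls moved. Without a minimum of reads, 253 LINC genes gave 13 higher and 4 lower in siHNRNPM. A minimum of 50 reads left 68 genes with 2 higher and 1 lower, and a minimum of 100 reads left 56 genes with 1 higher and 0 lower. Requiring the whole interval beyond 2-fold left 1 higher (LINC00893) and 0 lower. Omitting the genes with exonic overlap together with the 7 not placed in GENCODE, for which overlap is unknown and LINC00260 is one, left 40 genes, of which 2 were higher, 1 was lower, 11 had an interval above a ratio of 1 and 4 had one below it. Upper-quartile scaling gave 6 higher and 2 lower, and thinning the control library gave 3 and 2. In each of these settings at least 1 of the higher calls was a LINC gene not called with TMM scaling of the full libraries. Under the thinning LINC00863 (log2 ratio 0.94) and LINC01521 (0.98) were no longer called. The other 103 of the 105 comparisons for named LINC genes lost no 2-fold call. In 1 of them, LINC00938 under the same thinning, the log2 ratio crossed 0 (-0.04), within its interval. The median log2 ratio of LINC genes ran from 0.14 to 0.35 over these settings, and that of all features from -0.02 to 0.02 over the scalings. No paired analysis was possible because each group had 1 library. With 1 library per group, differences between cultures, transfections and sequencing runs cannot be told apart from the knockdown.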
